A study of Mus musculus with 8 samples.

Results

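The genes that make cholesterol and control its making were compared between aged TgCRND8 (Tg) mouse forebrain, 4 libraries, and non-transgenic (NTg) littermate forebrain, 4 libraries, all taken at 18 months. TgCRND8 mice carry a human APP transgene with the Swedish and Indiana mutations of familial Alzheimer disease, driven by a hamster prion promoter, and form amyloid plaques. The NTg littermates lack the transgene. The labels give both groups the batch value F and, in place of a treatment, the age, and do not state that each library is a separate animal. The 28 genes were chosen by name, with earlier results of these data known. They are sterol pathway symbols matched to Ensembl identifiers, out of 56748 genes in the deposited count table. All 28 were among the 21588 abundant enough to test. They comprise 21 enzymes from acetyl-CoA supply to cholesterol, 5 regulators, the carrier Stard4, the enzyme Cyp46a1, which turns cholesterol over, and, within the enzymes, the side-branch enzyme Ggps1.

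Cells build cholesterol from acetyl-CoA. The mevalonate steps make isoprenoid units, squalene is assembled from these, and squalene is closed into lanosterol, which a series of demethylations, reductions and isomerisations turns into cholesterol. When sterol in the endoplasmic reticulum is low, Scap carries the membrane-bound transcription factor encoded by Srebf2 to the Golgi, where it is cut free to activate most of these enzyme genes, and the Insig proteins hold it back when sterol is plentiful. The brain makes nearly all of its own cholesterol behind the blood-brain barrier, oligodendrocytes and astrocytes are its main makers, and neurons export surplus cholesterol through the hydroxylase Cyp46a1.

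Libraries held 57129090 to 65242741 counts. The mouse App gene, which can take up some reads of the transgene, stood at 2532, 2934, 2979.8 and 2958 CPM in Tg libraries, against 1623, 1486, 1452 and 1390.3 CPM in NTg libraries (log2 fold change 0.94, SE 0.07, edgeR adjusted p = 0.00146). All Tg libraries lay above all NTg libraries. CPM here stands for counts per 1000000, after scaling between libraries by the trimmed mean of M-values. All 5 forebrain markers examined were detected in every library, and Slc17a7, a cortical glutamate transporter, averaged 625 ± 119 CPM in Tg and 623 ± 58.3 CPM in NTg (SD, n = 4 each). Tg replicate 1 stood apart from the other Tg libraries. Its mean log2 level of the 5 forebrain markers, relative to the NTg mean, was -0.58, where the other Tg libraries lay at 0.14, 0.014 and 0.19 and the NTg libraries at 0.14, -0.11, 0.06 and -0.09. For Slc17a7 it was at 473 CPM, below the remaining Tg libraries at 608 to 759.9 CPM. Its levels of other marker lists are given with the cell types further on.

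Of the 28 genes, 23 had a higher mean in Tg and 5 a lower one, by small amounts. Their median log2 fold change (Tg over NTg) was 0.18, where all tested genes had a median of -0.0024, a 10th percentile of -0.19 and a 90th of 0.27. In whole tissue fewer cells of a type and less RNA per cell cannot be told apart, which holds for every fold change given here. Of all tested genes, 49.2% had a fold change above 0 and 15.3% lay above the median of the 28. Because the 28 were chosen with earlier results known, shares set beside them describe them and do not test them as a set. The quasi-likelihood test of edgeR, adjusted by Benjamini-Hochberg over all tested genes, called 0 of the 28 at 0.05, against 0.0139% of all tested genes (0.00926% higher and 0.00463% lower), and the smallest adjusted p among the 28 was 0.107. At an unadjusted p under 0.05 the same test placed 15 of the 28 higher, against 4.68% of tested genes, and 0 lower, against 2.68%. DESeq2 called 8 of the 28, all higher, against 1.62% of the genes it tested (1.37% higher and 0.25% lower). These were Acat2, Hmgcs1, Fdps, Fdft1, Sqle, Msmo1, Nsdhl and Stard4. Over the 17 alternatives to the edgeR fit, the lowest adjusted p of each of these genes came from DESeq2 and the highest lay between 0.351 for Nsdhl and 0.559 for Hmgcs1. Without Tg replicate 1, edgeR called 6, namely Hmgcs1, Fdft1, Sqle, Msmo1, Nsdhl and Hsd17b7, against 1.26% of tested genes called higher. Without NTg replicate 4 it called 1, Stard4, against 0.0137% of tested genes called higher.

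In 10 of the 28 genes all 4 Tg libraries lay above all 4 NTg libraries, against 2.62% of tested genes, and in 0 they all lay below, against 1.58%. The 10 were Acat2, Mvk, Fdps, Fdft1, Sqle, Msmo1, Nsdhl, Ebp, Sc5d and Stard4. Averaged over the 28 genes, the libraries lay 0.13, 0.20, 0.15 and 0.28 log2 units above the NTg mean in Tg, against 0.0016, 0.0042, 0.013 and -0.019 in NTg. The 4 Tg libraries sat apart from the 4 NTg libraries, and Tg replicate 4 was the highest. It had the highest level of all 8 libraries in 17 of the 28 genes. By step, the 7 mevalonate and isoprenoid enzymes had a median log2 fold change of 0.31, the 3 squalene enzymes 0.31, the 8 enzymes after lanosterol 0.18, the 5 regulators 0.05 and the 2 acetyl-CoA enzymes -0.01. No difference between these groups was tested.

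**Figure D1:**
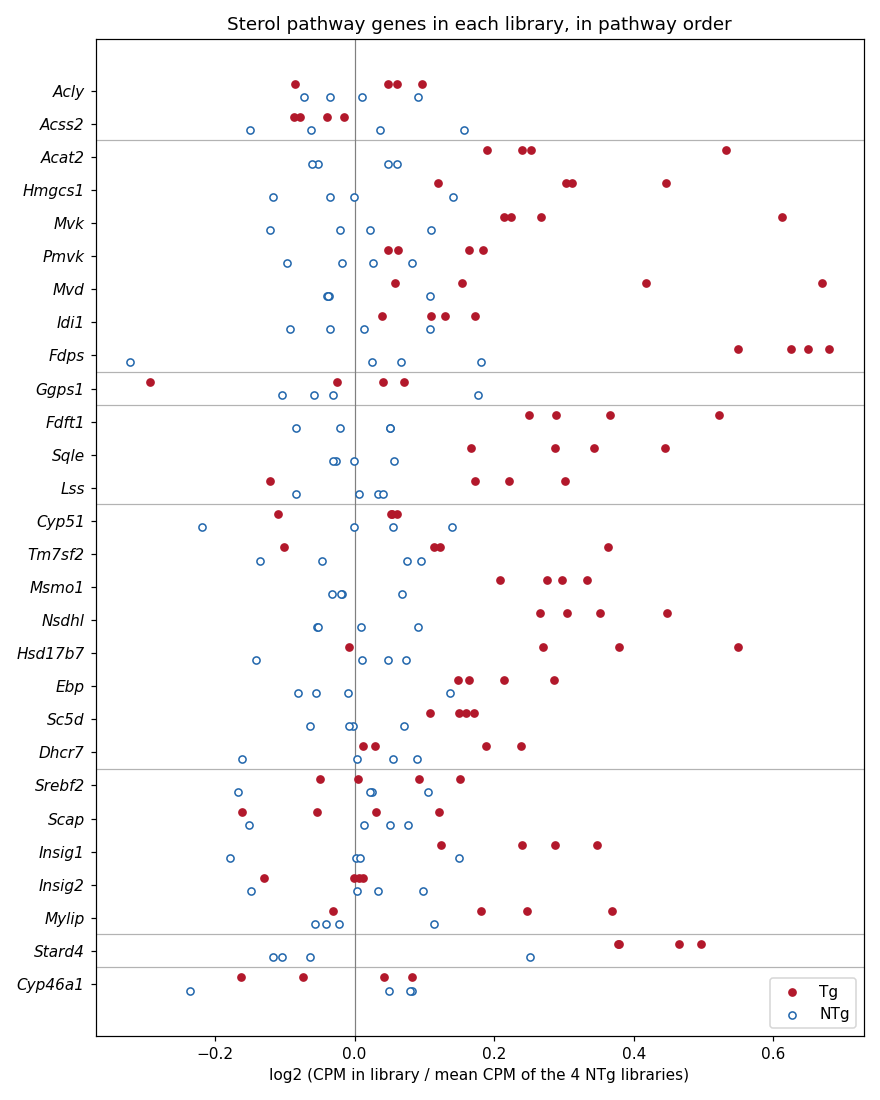
Level of each of the 28 genes in every library, as log2 of its CPM over the mean CPM of the 4 NTg libraries, with Tg as filled and NTg as open points and genes in pathway order (lines part the groups of steps). From Acat2 to Dhcr7 most Tg points lie right of the NTg points, and in 10 genes the genotypes do not overlap.

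The promoters of 4 enzymes that stood higher in Tg are shown because genes of this pathway are textbook targets of the Srebf2 product acting together with the factor NF-Y. They were picked after the matches had been counted, for holding 3 to 5 NF-Y boxes each. DESeq2 called 3 of the 4, and Mvk was called by neither tool. A window of Hsd17b7, Ggps1, Insig2 and Mylip also held 3 boxes and is not shown. With all libraries in, neither tool called any of these genes. They are RefSeq windows on GRCm38.p6, 250 bases before to 50 after the annotated start, read 5′ to 3′ on the strand of the gene, for Hmgcs1 at chr13:119690101-119690400 (plus strand), Mvk at chr5:114444019-114444318 (plus strand), Msmo1 at chr8:64733529-64733828 (minus strand) and Nsdhl at chrX:72918271-72918570 (plus strand). Capitals mark matches, on either strand, to TCACNCCAC, a pattern for the sterol regulatory element, and to CCAAT, the NF-Y box, which reads ATTGG on the other strand.
Hmgcs1: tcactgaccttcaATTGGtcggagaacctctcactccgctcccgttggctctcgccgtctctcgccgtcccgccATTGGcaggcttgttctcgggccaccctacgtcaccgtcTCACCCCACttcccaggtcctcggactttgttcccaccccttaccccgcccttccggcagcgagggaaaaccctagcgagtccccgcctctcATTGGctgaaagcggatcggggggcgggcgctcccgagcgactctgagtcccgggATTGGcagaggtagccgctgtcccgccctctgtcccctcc
Mvk: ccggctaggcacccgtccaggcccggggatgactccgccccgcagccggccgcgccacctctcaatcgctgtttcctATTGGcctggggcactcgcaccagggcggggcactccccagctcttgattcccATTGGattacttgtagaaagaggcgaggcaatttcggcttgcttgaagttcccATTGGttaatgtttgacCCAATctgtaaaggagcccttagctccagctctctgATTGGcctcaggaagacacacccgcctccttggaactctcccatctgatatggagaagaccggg
Msmo1: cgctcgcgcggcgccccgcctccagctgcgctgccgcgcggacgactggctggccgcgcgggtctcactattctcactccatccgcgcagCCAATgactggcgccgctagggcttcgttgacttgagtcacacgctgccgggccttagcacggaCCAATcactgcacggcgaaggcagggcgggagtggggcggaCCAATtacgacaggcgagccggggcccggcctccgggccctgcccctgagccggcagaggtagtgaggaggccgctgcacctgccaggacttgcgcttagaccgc
Nsdhl: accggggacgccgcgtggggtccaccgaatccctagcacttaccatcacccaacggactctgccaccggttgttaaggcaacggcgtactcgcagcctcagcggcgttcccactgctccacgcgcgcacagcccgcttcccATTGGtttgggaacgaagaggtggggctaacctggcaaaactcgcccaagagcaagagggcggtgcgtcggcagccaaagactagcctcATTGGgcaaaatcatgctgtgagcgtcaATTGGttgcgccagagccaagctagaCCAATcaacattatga
Windows were given for 24 of the 28 genes, the others being Fdps, Fdft1, Sqle and Stard4, all called by DESeq2. CCAAT occurred in a window of 22 of the 24 genes, which is 91.7%, against 41.1% of all 27025 genes with a window and 42.3% of the tested ones. The members without it were Acat2, which DESeq2 called, and Scap. TCACNCCAC occurred in 1 of the 24, Hmgcs1, at position -137 from the start, against 1.44% of all genes. Only exact matches, with any base at N, were counted, so elements that differ from the pattern or lie outside the windows were missed. The 2 patterns do not overlap one another in the Hmgcs1 window, which holds 4 CCAAT boxes, while the windows of Mvk, Nsdhl and Msmo1 hold 5, 4 and 3. A match is a stretch of letters and not a measured binding site. CCAAT also occurred in members whose genotypes overlapped, such as Acly, Cyp51, Cyp46a1, Ggps1 and Insig2.

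At the entry to the pathway the genotypes overlapped. Acly, which makes cytosolic acetyl-CoA from citrate, was at 237, 214, 243 and 235 CPM in Tg libraries, against 229, 242, 222 and 216 CPM in NTg libraries (log2 fold change 0.03, SE 0.06, edgeR adjusted p = 0.967). Acss2, which makes it from acetate, averaged 44.9 ± 1.04 CPM in Tg and 46.6 ± 4.29 CPM in NTg (log2 fold change -0.05, SE 0.06, edgeR adjusted p = 0.939). The Tg libraries of Acss2 lay inside the NTg range, and those of Acly passed it slightly at both ends. Acss2 shares 198 exonic bases with Ggt7 on the opposite strand, and the library kit does not mark strand, so reads of that stretch could belong to either gene.

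All 7 enzymes of the mevalonate and isoprenoid steps had a higher mean in Tg. Acat2 (ENSMUSG00000023832), the cytosolic thiolase that joins acetyl-CoA units, was at 82.3, 78.8, 81.5 and 99.9 CPM in Tg libraries, against 66.6, 72.0, 71.4 and 66.2 CPM in NTg libraries. The genotypes did not overlap and Tg replicate 4 was well above the other Tg libraries (log2 fold change 0.31, SE 0.08, edgeR adjusted p = 0.195; DESeq2 adjusted p = 0.0240). Its log2 fold change was 0.23 without that library. A near-identical gene, Acat3, shares 97.7% of its sequence over 1477 bases, a stretch of 445 bases also matches Tcp1, and counts are uncertain for that reason. Acat2 and Acat3 summed gave a log2 fold change of 0.28. Hmgcs1 (ENSMUSG00000093930), which condenses acetyl-CoA units into HMG-CoA, was at 225, 255, 257 and 282 CPM in Tg libraries, against 207, 191, 202 and 228 CPM in NTg libraries. Tg replicate 1 lay below NTg replicate 4, and the other Tg libraries lay above every NTg library (log2 fold change 0.30, SE 0.08, edgeR adjusted p = 0.225; DESeq2 adjusted p = 0.0329).

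The kinases and the decarboxylase that follow act on mevalonate. Mvk, mevalonate kinase, was at 16.9, 17.5, 16.8 and 22.2 CPM in Tg libraries, against 14.7, 15.7, 14.3 and 13.3 CPM in NTg libraries (log2 fold change 0.34, SE 0.10, edgeR adjusted p = 0.315). The genotypes did not overlap, Tg replicate 4 stood out, and without it the log2 fold change was 0.23. Mvd, which yields the first isoprenoid unit, was at 15.3, 18.4, 14.3 and 21.9 CPM in Tg libraries, against 13.4, 13.4, 14.8 and 13.4 CPM in NTg libraries (log2 fold change 0.34, SE 0.12, edgeR adjusted p = 0.493). Tg replicate 3 lay below NTg replicate 3, the spread among Tg libraries was wide (coefficient of variation 19.5% in Tg and 5.18% in NTg), and without Tg replicate 4 the log2 fold change was 0.22. Pmvk, the kinase between them, averaged 31.9 ± 1.53 CPM in Tg and 29.4 ± 1.53 CPM in NTg (log2 fold change 0.12, SE 0.06, edgeR adjusted p = 0.709). Idi1, which interconverts the isoprenoid units, averaged 66.8 ± 2.55 CPM in Tg and 61.7 ± 3.67 CPM in NTg (log2 fold change 0.11, SE 0.05, edgeR adjusted p = 0.706). Both overlapped between genotypes. Idi1 has 2 near-identical copies elsewhere, and summed with them its log2 fold change was 0.11.

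Fdps (ENSMUSG00000059743), which joins isoprenoid units into farnesyl diphosphate, had the largest fold change of the 28. It was at 5.61, 5.33, 5.71 and 5.83 CPM in Tg libraries, against 4.13, 3.81, 2.91 and 3.71 CPM in NTg libraries (log2 fold change 0.63, SE 0.12, edgeR adjusted p = 0.121; DESeq2 adjusted p = 0.000217). Every Tg library lay above every NTg library. Its counts were few (164 to 372 per library), and 58.2% of the counts of Fdps and its near-identical copies went to the copies. Summed over Fdps and the 4 copies that match over at least 500 bases, the level was 13.1 ± 0.445 CPM in Tg and 9.12 ± 0.802 CPM in NTg, with a log2 fold change of 0.52 (SE 0.08, edgeR adjusted p = 0.0915). Ggps1, which extends farnesyl to geranylgeranyl diphosphate for protein prenylation and leads away from sterols, was at 66.7, 69.7, 71.3 and 55.4 CPM in Tg libraries, against 66.4, 63.1, 65.1 and 76.7 CPM in NTg libraries (log2 fold change -0.04, SE 0.09, edgeR adjusted p = 0.971). Tg replicate 4, the highest library for most of the pathway, was the lowest of all 8 for Ggps1, and NTg replicate 4 was the highest.

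The squalene steps commit farnesyl units to sterol. Fdft1 (ENSMUSG00000021273), squalene synthase, was at 96.5, 102, 93.9 and 113 CPM in Tg libraries, against 81.8, 77.8, 81.8 and 74.5 CPM in NTg libraries, with no overlap (log2 fold change 0.36, SE 0.06, edgeR adjusted p = 0.107; DESeq2 adjusted p = 0.000369). It shares 774 exonic bases with Ctsb, a lysosomal protease gene on the opposite strand, and without strand the reads of that stretch cannot be told apart. Ctsb itself was at 688, 866, 874 and 867 CPM in Tg libraries, against 672, 631, 614 and 609 CPM in NTg libraries (log2 fold change 0.38, SE 0.08, edgeR adjusted p = 0.137; DESeq2 adjusted p = 0.00191). Its part in the Fdft1 difference was not tested.

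Sqle (ENSMUSG00000022351), squalene epoxidase and a rate-limiting enzyme of the pathway, was at 68.7, 77.7, 74.8 and 83.4 CPM in Tg libraries, against 60.1, 63.7, 59.9 and 61.2 CPM in NTg libraries. The lowest Tg library lay above the highest NTg library (log2 fold change 0.31, SE 0.06, edgeR adjusted p = 0.121; DESeq2 adjusted p = 0.00146). No near-identical copy of Sqle was found. Lss, which closes the ring to lanosterol, was at 41.1, 39.7, 32.4 and 43.4 CPM in Tg libraries, against 36.1, 35.4, 36.2 and 33.2 CPM in NTg libraries (log2 fold change 0.15, SE 0.08, edgeR adjusted p = 0.778). Tg replicate 3 was the lowest of all 8 libraries, and without it the log2 fold change was 0.23. Without Tg replicate 4 it was 0.10.

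After lanosterol all 8 enzymes had a higher mean in Tg, in unequal measure. Msmo1 (ENSMUSG00000031604), the monooxygenase that oxidises methyl groups of the sterol ring for their removal, was at 89.4, 95.1, 97.5 and 93.8 CPM in Tg libraries, against 76.5, 75.7, 76.4 and 81.2 CPM in NTg libraries. The genotypes were well apart and the SE was the second smallest of the 28 (log2 fold change 0.28, SE 0.04, edgeR adjusted p = 0.107; DESeq2 adjusted p = 5.15e-05). Nsdhl (ENSMUSG00000031349), the dehydrogenase that acts with it, was at 28.2, 27.3, 26.5 and 30.1 CPM in Tg libraries, against 22.2, 23.5, 21.3 and 21.3 CPM in NTg libraries, again with no overlap (log2 fold change 0.34, SE 0.06, edgeR adjusted p = 0.107; DESeq2 adjusted p = 0.000235). Hsd17b7, the reductase of the same removal, was at 23.8, 28.8, 31.1 and 35.0 CPM in Tg libraries, against 24.7, 24.1, 25.2 and 21.7 CPM in NTg libraries (log2 fold change 0.31, SE 0.11, edgeR adjusted p = 0.450). For Hsd17b7, Tg replicate 1 lay among the NTg libraries while the other Tg libraries lay above them. Without Tg replicate 1 its log2 fold change was 0.40 and edgeR called it, with an adjusted p of 0.0492, where its adjusted p ranged up to 0.793 over the alternatives tried.

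Cyp51, which demethylates lanosterol just before these enzymes act, was at 66.1, 59.0, 66.0 and 66.4 CPM in Tg libraries, against 54.7, 63.7, 66.1 and 70.2 CPM in NTg libraries (log2 fold change 0.02, SE 0.08, edgeR adjusted p = 0.992). The Tg range lay inside the NTg range. Cyp51 overlaps Akap9 on the opposite strand over 166 exonic bases. Ebp, the isomerase, averaged 16.4 ± 0.706 CPM in Tg and 14.2 ± 0.981 CPM in NTg (log2 fold change 0.20, SE 0.07, edgeR adjusted p = 0.395), and Sc5d, the desaturase, 78.4 ± 1.48 CPM in Tg and 70.7 ± 2.70 CPM in NTg (log2 fold change 0.15, SE 0.04, edgeR adjusted p = 0.306). In both genes the genotypes did not overlap, although the gap was narrow: the lowest Tg library of Ebp was at 15.7 CPM, against 15.6 CPM in the highest NTg library. Tm7sf2, a sterol reductase, averaged 15.1 ± 2.00 CPM in Tg and 13.8 ± 1.03 CPM in NTg (log2 fold change 0.13, SE 0.10, edgeR adjusted p = 0.869). For Tm7sf2 the log2 fold change was 0.05 without Tg replicate 4 and 0.20 without Tg replicate 3. Dhcr7, a last-step reductase, averaged 29.0 ± 2.29 CPM in Tg and 26.6 ± 2.00 CPM in NTg (log2 fold change 0.12, SE 0.07, edgeR adjusted p = 0.825), and its log2 fold change was 0.07 without NTg replicate 4. Tm7sf2 and Dhcr7 overlapped between genotypes.

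**Figure D2:**
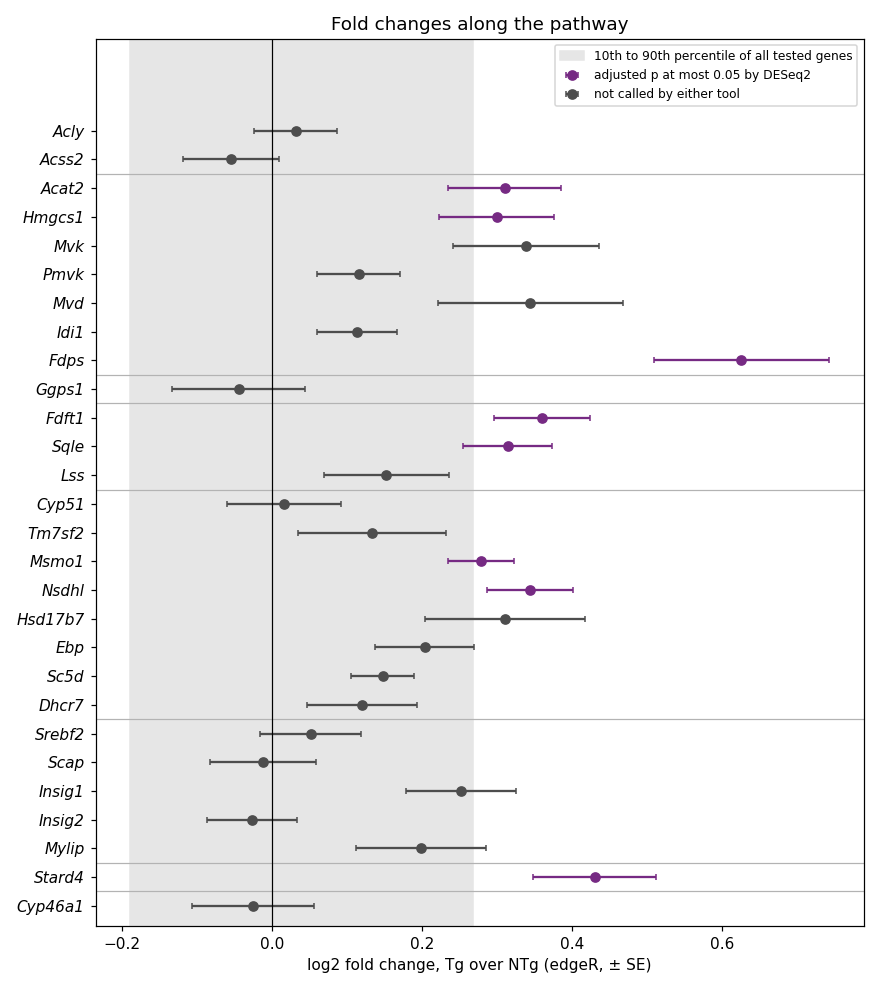
Log2 fold change of each gene, Tg over NTg, from edgeR with its standard error, in pathway order, over a grey band that spans the 10th to the 90th percentile of all tested genes. Of the 28 genes 11 lie above the band, and the 8 that DESeq2 called are in purple.

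Of the 5 regulators edgeR and DESeq2 called 0, and Insig1 and Mylip were higher at an unadjusted p under 0.05. Srebf2, which encodes the pathway's transcription factor, was at 187, 207, 195 and 215 CPM in Tg libraries, against 209, 197, 197 and 173 CPM in NTg libraries (log2 fold change 0.05, SE 0.07, edgeR adjusted p = 0.945). Without NTg replicate 4 the log2 fold change was 0.0011. Scap, its escort, averaged 60.8 ± 5.03 CPM in Tg and 61.4 ± 4.24 CPM in NTg (log2 fold change -0.01, SE 0.07, edgeR adjusted p = 0.995). The genotypes overlapped in both. Insig1, which retains Scap and is itself a target of the pathway's factor, was at 104, 101, 93.2 and 109 CPM in Tg libraries, against 85.6, 75.6, 94.8 and 86.0 CPM in NTg libraries (log2 fold change 0.25, SE 0.07, edgeR adjusted p = 0.317). For Insig1, Tg replicate 3 lay just below NTg replicate 3, and the other Tg libraries lay above every NTg library. Insig2, its paralog, averaged 52.8 ± 2.42 CPM in Tg and 53.8 ± 3.81 CPM in NTg (log2 fold change -0.03, SE 0.06, edgeR adjusted p = 0.973). Whether the 2 Insig genes differ in response was not tested. Mylip, a ubiquitin ligase that directs lipoprotein receptors to degradation, was at 14.0, 16.2, 18.5 and 17.0 CPM in Tg libraries, against 13.8, 13.9, 14.1 and 15.5 CPM in NTg libraries (log2 fold change 0.20, SE 0.09, edgeR adjusted p = 0.665), with Tg replicate 1 among the NTg libraries.

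Stard4 (ENSMUSG00000024378), a cytosolic carrier that moves sterol between membranes, had the second largest fold change. It was at 63.0, 67.0, 63.0 and 68.4 CPM in Tg libraries, against 46.4, 45.1, 44.7 and 57.7 CPM in NTg libraries (log2 fold change 0.43, SE 0.08, edgeR adjusted p = 0.121; DESeq2 adjusted p = 0.000607). All Tg libraries lay above all NTg libraries, and NTg replicate 4 was far above the other NTg libraries. Without it the log2 fold change was 0.53 and edgeR called the gene. Cyp46a1, the neuronal hydroxylase that clears brain cholesterol, was at 108, 125, 115 and 128 CPM in Tg libraries, against 128, 128, 125 and 103 CPM in NTg libraries (log2 fold change -0.03, SE 0.08, edgeR adjusted p = 0.985). NTg replicate 4 was the lowest of the 8 and the other 3 NTg libraries were close together. Tg replicate 4 lay among these 3, so the genotypes overlapped also apart from NTg replicate 4.

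**Figure D3:**
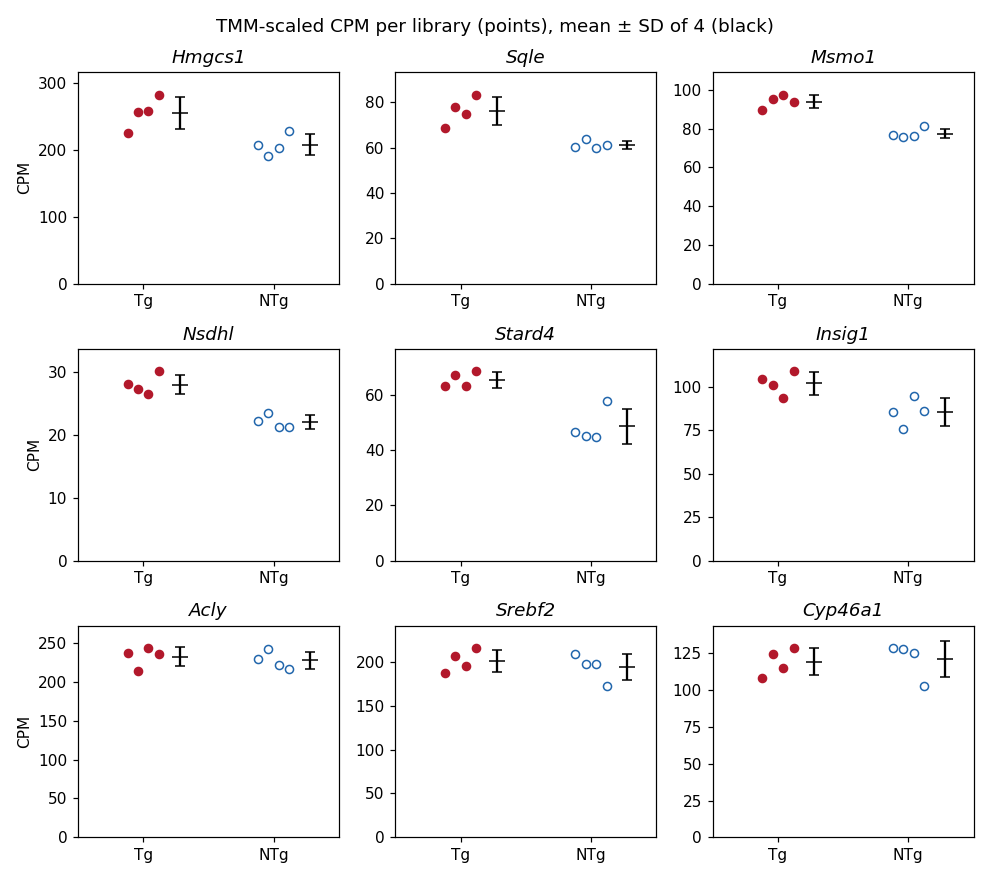
CPM per library for 9 of the genes, with Tg left of NTg, and the mean ± SD of 4 libraries in black on axes that start at 0. In Sqle, Msmo1, Nsdhl and Stard4 all Tg points lie above all NTg points. Hmgcs1 and Insig1 have higher Tg means with some overlap. Acly, Srebf2 and Cyp46a1 also overlap, with means closer together.

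Levels per kilobase of exon (RPKM) divide CPM by the joined length of all annotated exons of a gene. That length was 10.8 kb for Lss, at 35.2 CPM in NTg, and 1.71 kb for Pmvk, at 29.4 CPM in NTg. It can exceed the length of the transcripts present, so the order of genes by RPKM is approximate. The highest in Tg and in NTg was Hmgcs1, at 55.5 ± 5.10 RPKM in Tg and 45.1 ± 3.41 RPKM in NTg, followed in NTg by Acly at 44.0 ± 2.36 RPKM in Tg and 43.1 ± 2.12 RPKM in NTg and Cyp46a1 at 36.2 ± 2.77 RPKM in Tg and 36.8 ± 3.72 RPKM in NTg. Hmgcs1 and Acly differed in NTg by less than the SD of either. In the middle lay Fdft1, at 24.0 ± 2.04 RPKM in Tg and 18.7 ± 0.836 RPKM in NTg, and Sqle, at 13.7 ± 1.10 RPKM in Tg and 11.0 ± 0.313 RPKM in NTg. At the low end were Lss, with 3.63 ± 0.441 RPKM in Tg and 3.27 ± 0.128 RPKM in NTg, Tm7sf2, with 3.43 ± 0.454 RPKM in Tg and 3.13 ± 0.233 RPKM in NTg, and Fdps, with 1.34 ± 0.0510 RPKM in Tg and 0.865 ± 0.123 RPKM in NTg, whose level leaves out reads given to its copies. Between libraries the 28 genes had a median coefficient of variation of 7.06% in Tg and 6.79% in NTg, where it was 10.1% in Tg and 9.25% in NTg over all tested genes.

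Genes around the pathway were taken as 7 lists. Of the 57 genes tested in these edgeR called 0, at an unadjusted p under 0.05 it placed 6 higher (Cyb5r3, Erg28, Npc2, Tspo, Ch25h and Fads2) and 3 lower (Rnf145, Dhdds and Elovl6). These were 10.5% higher and 5.26% lower, against 4.68% and 2.68% of all tested genes. DESeq2 called 1, which is 1.75% against 1.62%, the sterol-binding lysosomal protein gene Npc2. Npc2 was at 80.3, 97.1, 101 and 101 CPM in Tg libraries, against 78.8, 75.7, 70.4 and 71.7 CPM in NTg libraries (log2 fold change 0.35, SE 0.08, edgeR adjusted p = 0.149; DESeq2 adjusted p = 0.00573). Among the 10 genes of sterol transport and storage, with a median log2 fold change of 0.04, Tspo, a mitochondrial outer-membrane protein abundant in glia, averaged 6.39 ± 1.03 CPM in Tg and 4.72 ± 0.334 CPM in NTg (log2 fold change 0.44, SE 0.13, edgeR adjusted p = 0.317). Soat1, which esterifies cholesterol, averaged 37.9 ± 2.62 CPM in Tg and 35.8 ± 3.45 CPM in NTg (log2 fold change 0.08, SE 0.08, edgeR adjusted p = 0.918). Osbp, a sterol and phospholipid exchanger, averaged 63.7 ± 0.616 CPM in Tg and 65.9 ± 1.22 CPM in NTg (log2 fold change -0.05, SE 0.04, edgeR adjusted p = 0.873). It was the one gene of its list with all Tg libraries below all NTg libraries, as in 1.58% of tested genes. In Npc2 and Tspo of that list all Tg libraries lay above all NTg libraries, as in 2.62% of tested genes.

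Of the genes that process the Srebf2 product or degrade sterol-sensing proteins, 9 were tested, with a median of -0.03. The proteases Mbtps1 and Mbtps2, which cut the factor free, had log2 fold changes of -0.03 (SE 0.05) and -0.06 (SE 0.04). Rnf145, a ubiquitin ligase of the endoplasmic reticulum, averaged 91.6 ± 2.59 CPM in Tg and 101 ± 1.84 CPM in NTg, and its 4 Tg libraries lay below the 4 NTg libraries (log2 fold change -0.14, SE 0.04, edgeR adjusted p = 0.284). The 7 electron donors and accessory proteins of sterol enzymes had a median of 0.05. Cyb5r3, which reduces the cytochrome that feeds the desaturase and monooxygenase, averaged 64.3 ± 6.08 CPM in Tg and 53.8 ± 2.83 CPM in NTg without overlap (log2 fold change 0.26, SE 0.07, edgeR adjusted p = 0.275). Erg28, a scaffold of the demethylation enzymes, averaged 41.4 ± 0.998 CPM in Tg and 37.7 ± 2.34 CPM in NTg (log2 fold change 0.14, SE 0.05, edgeR adjusted p = 0.554).

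The lists for branches that share the precursors or the regulation of the pathway had medians near that of all genes. The 13 isoprenoid-using genes had a median log2 fold change of 0.03, and Dhdds, which makes dolichol precursors, averaged 58.1 ± 1.71 CPM in Tg and 63.1 ± 2.83 CPM in NTg (log2 fold change -0.12, SE 0.05, edgeR adjusted p = 0.577). The 5 genes listed for liver X receptors and their targets, Nr1h2, Nr1h3, Abcg1, Abcg4 and Lpcat3, had a median of -0.0041, with 2 higher and 3 lower. This list does not hold all targets of these receptors. Abcg1, a sterol exporter and target of these receptors, averaged 75.3 ± 1.56 CPM in Tg and 75.5 ± 5.69 CPM in NTg (log2 fold change -0.0041, SE 0.06, edgeR adjusted p = 0.998). The 2 higher genes were Nr1h3 (log2 fold change 0.19, SE 0.12, edgeR adjusted p = 0.837) and Lpcat3 (log2 fold change 0.10, SE 0.05, edgeR adjusted p = 0.775). The 9 genes of fatty acid synthesis and desaturation had a median of -0.03, with 4 higher and 5 lower. Scd2, a desaturase, was at 1723 ± 32.4 CPM in Tg and 1828 ± 170.1 CPM in NTg (log2 fold change -0.09, SE 0.07, edgeR adjusted p = 0.886). Elovl6, an elongase, was at 67.8 ± 9.11 CPM in Tg and 78.0 ± 1.44 CPM in NTg (log2 fold change -0.20, SE 0.08, edgeR adjusted p = 0.620). Fads2, a desaturase, was at 160 ± 5.18 CPM in Tg and 148 ± 6.02 CPM in NTg (log2 fold change 0.11, SE 0.05, edgeR adjusted p = 0.624). In Fads2 and Lpcat3 all Tg libraries lay above all NTg libraries, as in 2.62% of tested genes. The 4 oxysterol and bile acid genes tested had a median of 0.04. Ch25h, an oxysterol-making enzyme of activated macrophages, averaged 1.29 ± 0.303 CPM in Tg and 0.774 ± 0.299 CPM in NTg (log2 fold change 0.73, SE 0.29, edgeR adjusted p = 0.593), with overlap.

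Markers of several cell types differed with genotype alongside the sterol genes. Their counts stand against 4.68% of all tested genes higher and 2.68% lower at an unadjusted p under 0.05, and 1.37% called higher and 0.25% called lower by DESeq2. Microglial markers were higher in 10 of 10 genes (median log2 fold change 0.90; edgeR called 0, all 10 had an unadjusted p under 0.05 and DESeq2 called 7), and summed to 528, 944, 864 and 861 CPM in Tg libraries, against 523, 398, 421 and 392 CPM in NTg libraries. Reactive astrocyte markers were higher in 5 of 5 (median 1.60; edgeR called 0, while all 5 had an unadjusted p under 0.05 and DESeq2 called 5), and summed to 765, 2339.5, 1844 and 2452 CPM in Tg libraries, against 583, 589, 493 and 545 CPM in NTg libraries. In both lists Tg replicate 1 lay nearest to NTg, as it did in the mean of the 28 sterol genes. Tg replicate 4, the highest for the sterol genes, was below Tg replicates 2 and 3 in the sum of microglial markers. For reactive astrocyte markers it was above them in the sum but below Tg replicate 2 in the mean log2 level, at 1.78 and 1.84 for replicates 4 and 2. General astrocyte markers summed to 3999 to 4363 CPM in Tg and 3854 to 4648 CPM in NTg, with a median of 0.05, 5 of 8 higher and edgeR calling 0. DESeq2 called 1 higher, the water channel gene Aqp4 (log2 fold change 0.49, SE 0.13, DESeq2 adjusted p = 0.0210), and 1 lower, the growth factor receptor gene Fgfr3 (log2 fold change -0.24, SE 0.05, DESeq2 adjusted p = 0.00667), and these were also the 2 with an unadjusted p under 0.05. No marker of these lists was at 0 in any library.

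The markers of other cell types overlapped between genotypes or were lower in Tg. Myelin genes summed to 6784 to 8250.5 CPM in Tg and 7960 to 9870.0 CPM in NTg, with 8 of 9 lower, 1 at an unadjusted p under 0.05 and 0 called by edgeR or DESeq2 (median -0.12). Neuronal markers summed to 4939 to 5572 CPM in Tg and 5365 to 5759 CPM in NTg (median -0.07, 0 of 7 called by edgeR or DESeq2 and 0 at an unadjusted p under 0.05). Endothelial markers, with 6 of 6 lower, 3 of them at an unadjusted p under 0.05 (median -0.34; edgeR called 0 and DESeq2 1), summed to 140.5 to 200.5 CPM in Tg and 191 to 229 CPM in NTg. Choroid plexus markers, with 6 of 6 lower, all at an unadjusted p under 0.05 (median -0.87; edgeR called 0 and DESeq2 4), summed to 307 to 569.8 CPM in Tg and 599.6 to 911 CPM in NTg. Markers of oligodendrocyte precursors had a median of -0.0040 and overlapped, with 2 higher, 3 lower and 0 called by edgeR or DESeq2. Of the lower ones 1, Olig2, had an unadjusted p under 0.05 (log2 fold change -0.21, SE 0.09). Red blood cell markers, with 5 of 5 lower and 0 at an unadjusted p under 0.05 or called (median -0.82), summed to 3003, 489, 732 and 448 CPM in Tg libraries, against 1685, 1282, 1876 and 3271 CPM in NTg libraries. The part of cell makeup in the sterol gene differences was not tested.

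**Figure D4:**
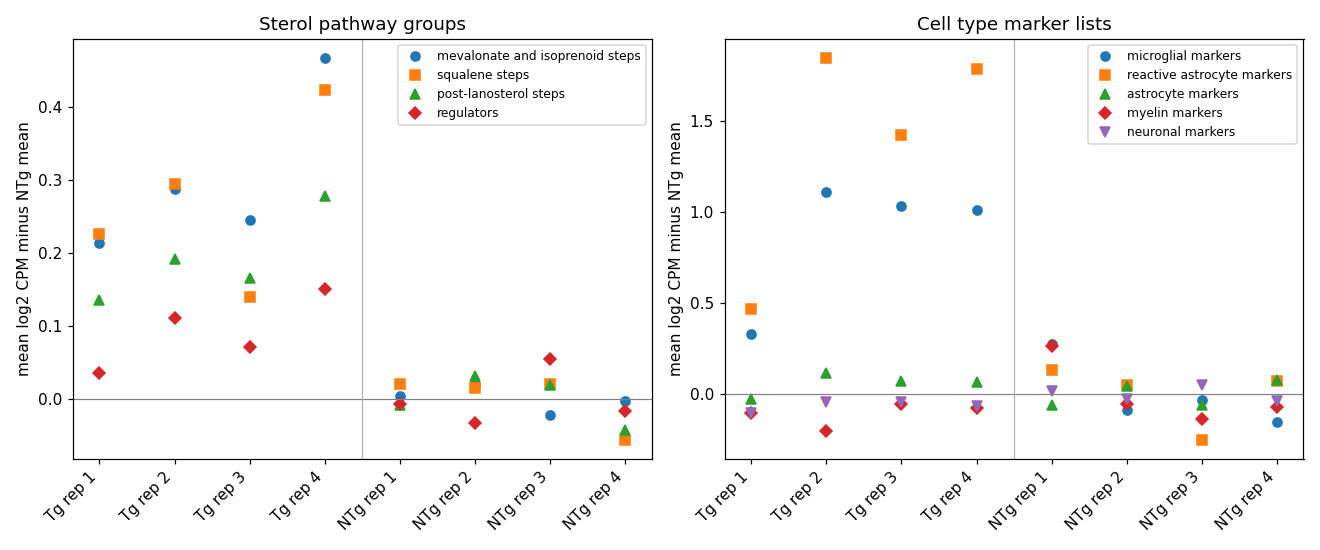
Mean log2 CPM of each gene group over the NTg mean, for every library with Tg left of NTg, for groups of pathway steps (left) and cell type markers (right, on a wider axis). Mevalonate, squalene and post-lanosterol groups lie higher in all 4 Tg than in all 4 NTg libraries, regulators overlap, and Tg replicate 1 is the lowest Tg library for microglial and reactive astrocyte markers.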

How the data were processed

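Polyadenylated RNA of frozen, pulverised forebrain was sequenced from 4 Tg and 4 NTg mouse libraries at 18 months. Per the labels' protocols, the kit was TruSeq RNA version 2, a kit without strand information, read as pairs of 75 bases. The authors deposited un-normalized counts for each Ensembl gene. GRCm39, STAR and DESeq2 are named in the submitters' processing notes. The counting tool and annotation were not given in the sources used here. Total counts were 57129090 to 65242741 per library, the p-values measure the spread between these libraries, and precision at low counts is set by counting error. Of the identifiers, 52073 matched a symbol, holding 99.6% of counts.

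From these counts, edgeR 4.0.16 (R 4.3.3, limma 3.58.1) kept genes by filterByExpr with a minimum count of 10 and a minimum total of 15, scaled libraries by TMM and fitted all 8 libraries by genotype alone. The quasi-likelihood F test was two-sided, adjusted by Benjamini-Hochberg over all 21588 tested genes, with a threshold of 0.05. Standard errors are the log2 fold change divided by the root of F, taken as positive. RPKM divides CPM by the joined length of all exons of a gene in GENCODE M21, which is on GRCm38, so lengths are approximate. Near-identical copies were found by aligning transcripts, at 95% identity or more over at least 150 bases. Scripts were tested on simulated data. Alternatives were DESeq2 1.42.0, limma-voom with and without quality weights, other scaling, filters and dispersion, the replicate number as a block, an FDR of 0.1 and each library left out. Summing counts over copies of at least 500 bases was chosen after seeing the data. The 28 members, the gene lists and the tests were chosen with earlier results of these data known. All 28 members are named, and of each other list up to 4 genes with the smallest p and its most abundant gene were eligible for naming. Genes named as overlapping neighbours or near-identical copies, such as Ctsb, were added after the values had been looked at, outside that rule. Of the related gene lists, 1 is not reported here.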

Additional observations from a re-analysis of the deposited data

Results flagged for a closer look

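In 8 of the 56 groups of 4 libraries examined, 1 library lay far from the other 3 for a sterol gene, beyond the 95% critical value of Dixon's test, which chance passes in about 1 in 20 groups. Among the Tg libraries, replicate 4 was high for Acat2, at 99.9 CPM where the others were at 78.8 to 82.3 CPM, and for Mvk, at 22.2 CPM where the others were at 16.8 to 17.5 CPM. The same library was low for Insig2, at 49.2 CPM against 53.8 to 54.2 CPM in the other Tg libraries. Tg replicate 2 was low for Cyp51, at 59.0 CPM against 66.0 to 66.4 CPM in the other Tg libraries. Among the NTg libraries, replicate 4 was high for Stard4, at 57.7 CPM where the others were at 44.7 to 46.4 CPM, and for Msmo1, at 81.2 CPM where the others were at 75.7 to 76.5 CPM. It was low for Cyp46a1, at 103 CPM against 125 to 128 CPM in the other NTg libraries. NTg replicate 3 was high for Mvd, at 14.8 CPM where the others were at 13.4 CPM.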

How the results depend on the processing

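Over all tested genes edgeR called 3. DESeq2 called 350, limma-voom with quality weights 12, an FDR of 0.1 gave 16, no filter on low counts 127, and leaving out each library gave 3 to 314 (314 without Tg replicate 1, 16 without NTg replicate 1 and 9 without Tg replicate 2). Of the 28 sterol genes edgeR called 0, DESeq2 8, and leaving out each library 0 to 6. With no filter 5 were called (Fdft1, Sqle, Msmo1, Nsdhl and Stard4), against 0.295% of tested genes called higher. The cause of the differences between settings was not tested. The median log2 fold change of the 28 lay between 0.16 and 0.20 under the alternatives. Where it was given, the number of genes without overlap lay between 9 and 11 with all libraries in. With 1 library left out it lay between 10 and 14, but smaller groups separate more easily. The share of all genes without overlap was not counted for these alternatives.

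The numbers of the replicates do not pair the libraries (same-number correlations of deviations 0.07, -0.03, 0.16 and -0.0089, and not every library correlated best with its own number). With the replicate block edgeR called 1 gene in all and 0 of the 28.

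A few genes near 0 changed sign. Quality weights put Acly at -0.0055 and Ggps1 at 0.0091, and no scaling factor put Scap at 0.012. With each library left out, the log2 fold change ran from -0.10 to 0.0013 for Acss2, -0.095 to 0.018 for Cyp46a1, -0.050 to 0.067 for Cyp51, -0.085 to 0.029 for Ggps1, -0.073 to 0.0085 for Insig2 and -0.059 to 0.034 for Scap. No other sterol gene changed direction under the alternatives tried.

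The results are limited by 4 libraries a genotype, reads without strand, genes with copies or overlapping neighbours, and tissue of mixed cells. Fdps, at 164 to 372 counts per library, has the least depth of the 28.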
